A study of Rattus norvegicus with 54 samples.

Results

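The genes described here are 9 immediate early genes: Egr1, Egr2, Egr3, Egr4, Nr4a1, Nr4a2, Nr4a3, Arc and Ier2. They were taken as the probe sets whose first gene symbol in the authors' summary table was one of these names. Each gene had 1 probe set, with 25 to 51 probes and 1 gene symbol, so 9 of the 27342 main probe sets were members. They were measured on 54 arrays in 18 groups of 3, from SVZ biopsies and from neural progenitor cell (NPC) cultures of Rattus norvegicus.

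Immediate early genes are switched on within minutes of a stimulus, from proteins already present in the cell. Growth factors and neuronal activity reach them through the MAP kinase, calcium and cAMP pathways, which end on the transcription factors SRF and CREB. The Egr proteins are zinc-finger transcription factors, the Nr4a proteins are orphan nuclear receptors, Arc is a cytoskeleton-associated protein known for synaptic plasticity in neurons, and Ier2 is a small nuclear protein of the same early response. In the brain Egr1, Egr3 and Arc are widely used as marks of recently active neurons.

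The groups with disease came from rats with EAE (experimental autoimmune encephalomyelitis), in which an induced immune attack inflames the central nervous system, and the others from healthy rats, called naive. The cultures were grown from the subventricular zone (SVZ), a germinal zone of the forebrain, or from the cervical, thoracic or caudal spinal cord. Each region and disease state was profiled after 5 days of differentiation and as undifferentiated cells at passage 2. The remaining groups were SVZ biopsies of EAE and naive rats, taken without culture. The labels give the Dark Agouti strain for the cultures and no strain for the biopsies, and they give no age, no genetic change, no treatment and no method of inducing EAE. The labels leave unstated if the replicates are different animals, different cultures or neither. All p-values therefore rest on the scatter among 3 arrays a group, and part or all of that scatter may be technical.

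On the 54 arrays the main probe sets had a median signal of 51.6 to 120, and background probe sets one of 19 to 36.1. As a check of the labels, the mean log2(signal + 16) of 12 neural progenitor markers was 8.93 to 9.45 in differentiated SVZ cultures, 6.59 to 8.04 in differentiated cord cultures and 7.96 to 8.27 in biopsies, against 9.54 to 9.67 in undifferentiated SVZ cultures and 7.54 to 8.80 in undifferentiated cord cultures. That of 14 neuron markers was 10.70 to 10.95 in biopsies, and its highest value in a culture was 6.34. Cord cultures also carried markers of other cells: 15 microglia and macrophage markers averaged 7.23 to 8.90 in undifferentiated EAE cord cultures, against 4.80 to 5.65 in naive ones. In naive cord cultures 14 fibroblast and pericyte markers ran from 5.75 to 10.74 between single undifferentiated arrays. In such bulk samples, fewer cells of a type and less RNA per cell cannot be told apart. Of the 54 arrays 6, all of naive cultures, correlated with no other array of their group above 0.96. Some results that rest on them are also given without them. All 14 calls of members that could be refitted without them were kept.

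The promoters were read for the 2 elements through which early genes are best known to be induced, and 6 of the 9 members matched an entry of the RefSeq promoter table (build GRCr8). The 250 bases before the gene start were searched on both strands for the CArG box, the SRF site made of CC, a run of A and T bases, and GG, and for TGACG, the CRE half-site of the CREB family. Arc, Egr3 and Nr4a3 had no entry. Capitals mark these matches in the 5 promoters shown, which set Egr4, a gene of steady low signal, beside genes highest in undifferentiated SVZ cultures. The promoters shown are Egr1 (chr18:26736828-26737077, plus strand), Egr2 (chr20:21054442-21054691, minus strand), Egr4 (chr4:119607818-119608067, minus strand), Nr4a1 (chr7:134259888-134260137, plus strand) and Ier2 (chr19:40399123-40399372, plus strand).
Egr1: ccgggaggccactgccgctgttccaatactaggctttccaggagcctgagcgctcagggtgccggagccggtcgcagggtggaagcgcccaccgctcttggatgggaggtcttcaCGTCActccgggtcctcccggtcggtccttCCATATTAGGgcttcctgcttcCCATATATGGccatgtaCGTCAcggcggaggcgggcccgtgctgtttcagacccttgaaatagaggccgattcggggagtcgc
Egr2: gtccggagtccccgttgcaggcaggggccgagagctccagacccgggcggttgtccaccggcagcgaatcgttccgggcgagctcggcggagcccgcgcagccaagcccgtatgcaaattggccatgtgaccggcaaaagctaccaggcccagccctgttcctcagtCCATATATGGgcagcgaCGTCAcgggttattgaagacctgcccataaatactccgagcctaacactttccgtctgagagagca
Egr4: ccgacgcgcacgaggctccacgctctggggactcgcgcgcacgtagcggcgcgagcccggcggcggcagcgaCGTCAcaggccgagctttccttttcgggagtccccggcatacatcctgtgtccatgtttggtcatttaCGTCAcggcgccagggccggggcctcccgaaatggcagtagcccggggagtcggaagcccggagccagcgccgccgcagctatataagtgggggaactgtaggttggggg
Nr4a1: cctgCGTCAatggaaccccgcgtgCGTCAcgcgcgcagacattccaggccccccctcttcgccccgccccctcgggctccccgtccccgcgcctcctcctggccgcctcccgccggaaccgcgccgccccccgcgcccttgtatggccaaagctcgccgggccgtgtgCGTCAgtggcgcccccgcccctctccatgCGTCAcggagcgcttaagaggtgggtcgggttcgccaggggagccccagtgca
Ier2: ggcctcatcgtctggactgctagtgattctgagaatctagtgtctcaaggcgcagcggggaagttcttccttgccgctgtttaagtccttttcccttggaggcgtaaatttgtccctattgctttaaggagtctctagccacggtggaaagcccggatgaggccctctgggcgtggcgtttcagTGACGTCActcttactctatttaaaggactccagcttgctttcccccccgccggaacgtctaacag

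Egr1 held 2 CArG boxes and 2 CRE half-sites, and Egr2 held 1 of each. Nr4a1 had 4 half-sites, Egr4 had 2 and Nr4a2 had 1, with no CArG box in any of these 3 windows. In Ier2 the 2 half-sites overlapped as 1 full CRE, TGACGTCA. Of 27457 promoters of the same length, 1.5% held a CArG box, 19% a half-site and 1.7% a full CRE. Nr4a1 also held the EGR site GCGNGGGCG, which 4.53% of promoters had. None of the 6 windows held the Nr4a site AAAGGTCA or the AP-1 site TGANTCA. Matches are letters in a window and not measured sites.

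**Figure D1:**
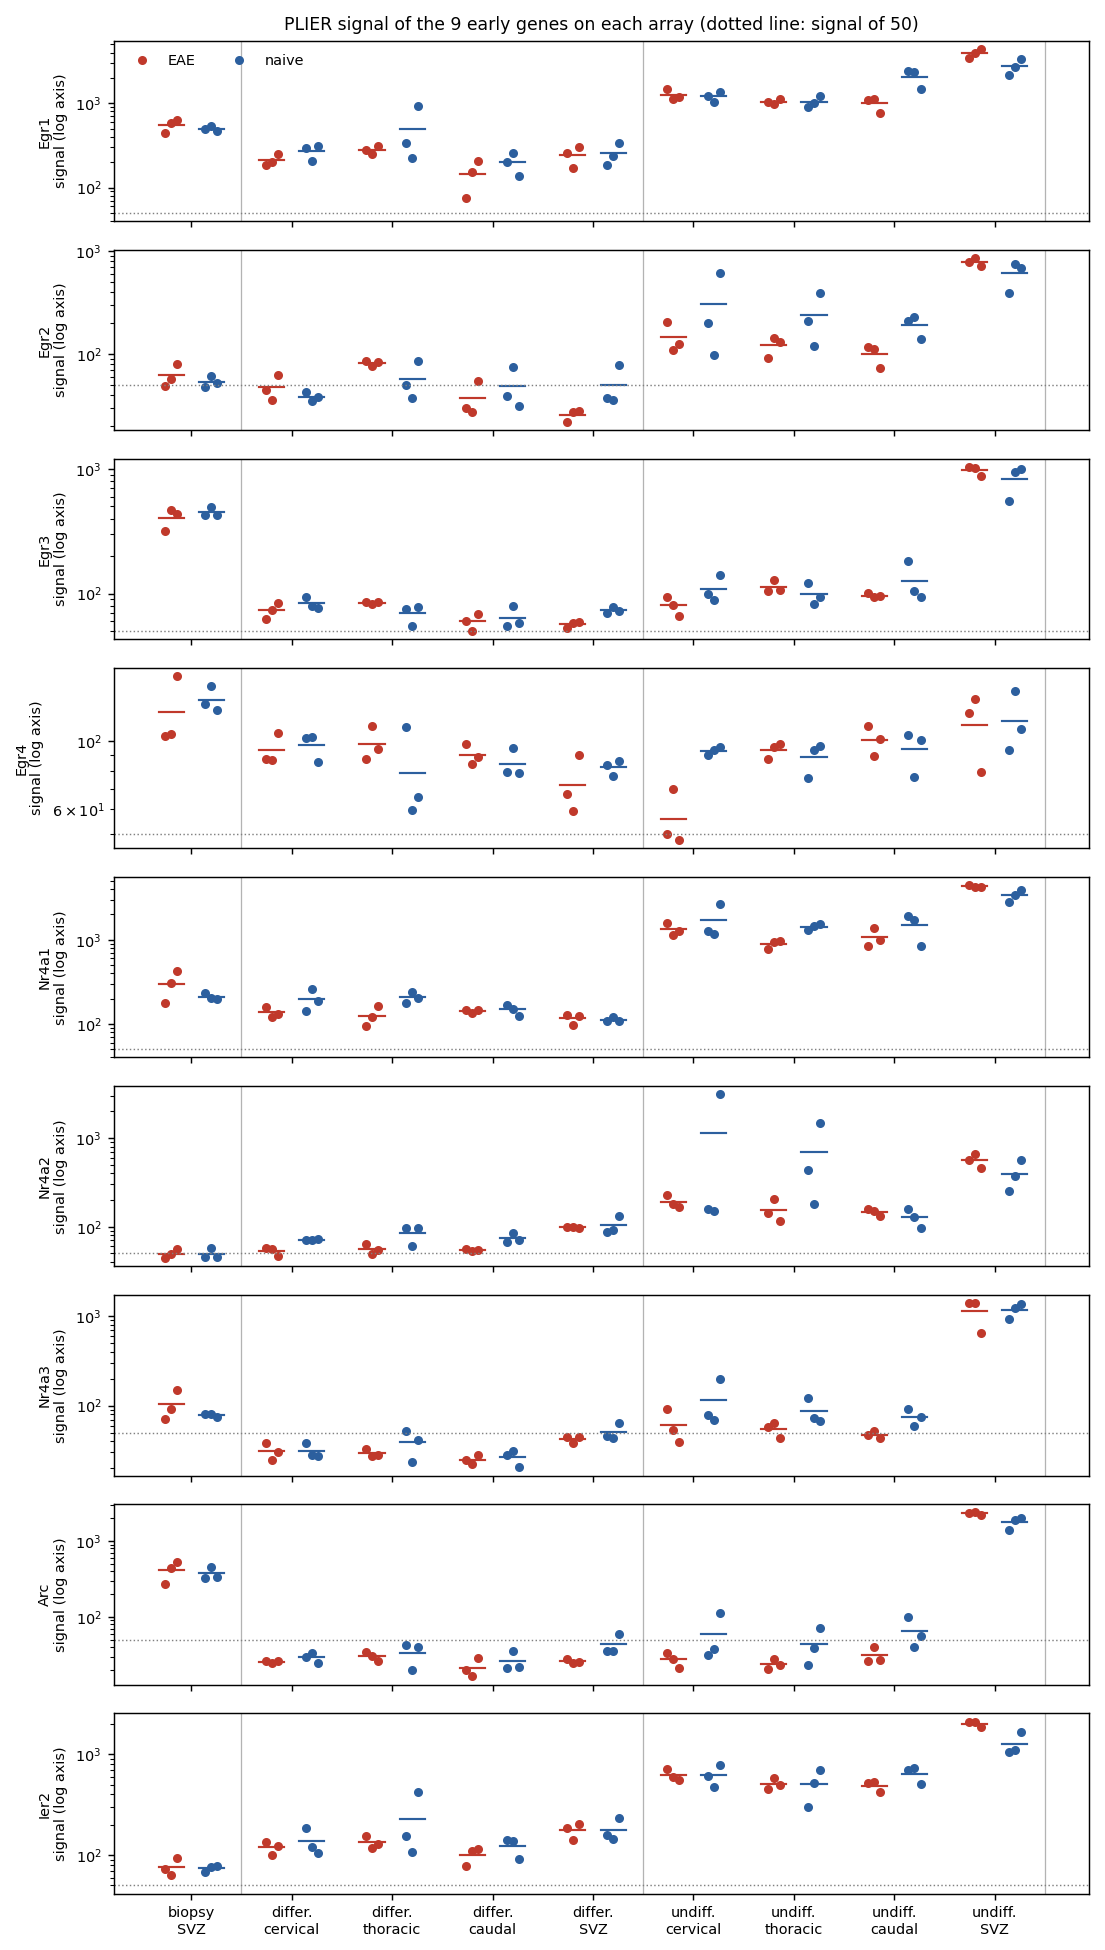
Signal of the 9 genes on every array (1 panel a gene, log axes), with biopsies at the left, differentiated cultures in the middle and undifferentiated cultures at the right. Points are arrays, lines are means of 3 arrays, EAE is red and naive is blue, and the dotted line is a signal of 50. Arc lay at 1381 or more on the 6 undifferentiated SVZ arrays, at 269.9 to 530 on the 6 biopsy arrays and at 111.9 or less on the other 42.

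The first question was how the genes stood across all groups. The plot of signals by array shows 3 patterns: genes high in undifferentiated SVZ cultures and low in nearly all other cultures (Arc, Egr3, Nr4a3), genes above 50 on all 24 undifferentiated arrays and highest in undifferentiated SVZ cultures (Egr1, Nr4a1, Ier2, Egr2), and Egr4, which stayed at 162.4 or less. Nr4a2 followed the middle pattern on most arrays and departed from it on single naive cord arrays. In group means of log2(signal + 16), undifferentiated SVZ cultures of EAE rats were highest for 7 of the 9 genes and those of naive rats for Nr4a3, while Egr4 was highest in naive biopsies. The share of all probe sets highest in those groups was not counted. The highest group mean exceeded the lowest by 62.4-fold for Arc, 33.9-fold for Nr4a1, 28.9-fold for Nr4a3, 26-fold for Egr1, 22.6-fold for Ier2, 19.1-fold for Egr2, 13.6-fold for Egr3, 8.71-fold for Nr4a2 and 2.13-fold for Egr4. These folds are ratios of geometric means, and where the lower group lies under 50 they depend on background.

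Neighbours in each gene's order of 18 group means mostly overlapped. Of 17 neighbouring pairs a gene, 3 did not overlap for Egr3, Nr4a1 and Arc, 2 for Egr1, Nr4a2 and Ier2, 1 for Nr4a3, and none for Egr2 and Egr4. Such gaps were not counted over all probe sets, so whether these counts are usual on the array is not known. For Arc the gaps lay below undifferentiated SVZ EAE, below undifferentiated SVZ naive and below the biopsies, and every later group overlapped its neighbour. For Egr3 the gaps lay below the undifferentiated SVZ cultures, below the biopsies and below the undifferentiated caudal cultures of EAE rats. Over the 18 group means, Arc and Egr3 had a Pearson correlation of 0.98 and Egr1 and Nr4a1 one of 0.96. Among the 36 pairs of members the correlation ran from -0.07 to 0.98 with a median of 0.70, and without Egr4 from 0.37 to 0.98 with a median of 0.80. Deviations of the 54 arrays from their group means correlated between 0.05 and 0.81 (median 0.45). These correlations share arrays and normalization and are descriptions.

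The second question was what differed between differentiated and undifferentiated cultures. Of the 9 genes, 8 fell in the average over the 4 regions, both in EAE and in naive cultures, and Egr4 was not called. In EAE cultures Arc and Nr4a3 were above 50 on no differentiated array and passed the signal filter only through undifferentiated ones, and of the other 7 genes 6 fell. The regions differed: Egr1, Egr2, Egr3, Nr4a1, Nr4a3, Arc and Ier2 had their widest difference in SVZ, in EAE and in naive cultures. In single cord regions Egr1, Nr4a1 and Ier2 had differences of -1.23 or wider, and those of Egr3 were -0.80 or narrower. A gene was called at a Benjamini-Hochberg adjusted p of 0.05 or less in limma and a fold of at least 1.2. By that rule 52.1% of all tested probe sets were called in EAE and 33.5% in naive cultures. Of all tested, 34.1% were lower in EAE and 26.8% in naive cultures. With arrays scaled to their 75th percentile those shares were 20.5% and 13.2%, and the members' counts did not change. The median log2 difference of the 9 genes was -1.58 in EAE and -1.88 in naive cultures, against -0.06 and -0.15 for all tested probe sets. With Arc and Nr4a3 at their lower bounds the EAE median was the same.

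Nr4a1, the orphan receptor also called Nur77, had a signal of 93.26 to 259.7 on the 24 differentiated arrays (median 136.6), against 780.3 to 4449 on the 24 undifferentiated ones (median 1423). The ranges were far apart. The log2 difference was -3.41 ± 0.09 (SE) in EAE cultures, with an adjusted p of 4.51e-18, and -3.37 ± 0.15 in naive cultures, with an adjusted p of 4.39e-11. By region it was -3.13 (cervical), -2.71 (thoracic), -2.75 (caudal) and -5.05 (SVZ) in EAE cultures. In naive cultures the same 4 values were -2.95, -2.71, -3.12 and -4.71.

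Egr1, the founding member of the Egr family, had a signal of 75.4 to 314.2 on the 12 differentiated EAE arrays, against 767 to 4427 on the 12 undifferentiated EAE arrays. In naive cultures it was 135.8 to 930.1 on differentiated arrays, against 911 to 3360 on undifferentiated ones. The naive ranges met only through 1 differentiated thoracic array, replicate 3, at 930.1, whose partners stood at 336.6 and 223.5. Egr1 fell, with a log2 difference of -2.76 ± 0.12 in EAE cultures (adjusted p 9.65e-15) and -2.52 ± 0.18 in naive cultures (adjusted p 4.62e-08). Ier2 had 78.02 to 205 on differentiated EAE arrays, against 422.3 to 2116 on undifferentiated ones. In naive cultures it had 90.61 to 426.8 on differentiated arrays, against 296.9 to 1651 on undifferentiated ones. Its highest differentiated value was on that same thoracic array, whose fibroblast and pericyte score was 10.58, the highest of any differentiated array, while its partners scored 9.58 and 5.87. The part of those markers in the values was not tested. Ier2 fell in both, at -2.40 ± 0.08 in EAE (adjusted p 1.24e-16) and -2.06 ± 0.19 in naive cultures (adjusted p 4.74e-07).

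Egr2, known for its role in Schwann cell myelination, stood at 21.82 to 84.86 on the 24 differentiated arrays, of which 8 were above 50. On the 24 undifferentiated arrays it stood at 73.73 to 853.4. It fell in both, at -1.80 ± 0.11 in EAE (adjusted p 1.5e-12) and -2.21 ± 0.24 in naive cultures (adjusted p 2.93e-06). In SVZ cultures of EAE rats all 3 differentiated arrays lay under 50, so Egr2 was at least 15.6-fold lower there than in undifferentiated ones, taking the study's limit of 50 as the lowest measurable signal, and at least 1.58-fold lower against the 95th percentile of background probe sets, a stricter limit.

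Arc had a signal of 16.48 to 59.35 on the 24 differentiated arrays, and only 1 of these was above 50. In EAE SVZ cultures its 3 differentiated arrays read 27.53, 24.61 and 25.75, against 2358, 2383 and 2185 in undifferentiated ones. In naive SVZ cultures they read 35.9, 35.24 and 59.35, against 1381, 1882 and 2043. No array came near the other stage. Against a limit of 50, Arc was at least 46.1-fold lower in differentiated EAE SVZ cultures, and at least 4.67-fold lower against the stricter limit set by the background probe sets. In EAE cord cultures every Arc signal was under 50 at both stages, so no difference can be read there, and the gene passed the filter only through the 3 undifferentiated SVZ arrays. In naive cultures, where 1 of 12 differentiated and 7 of 12 undifferentiated arrays were above 50, the mean over regions was -1.66 ± 0.18 (adjusted p 1.83e-06), and its cord part compares with 9 differentiated arrays that were all under 50.

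Nr4a3, also called NOR1, read 44.77, 37.79 and 44.66 in differentiated EAE SVZ cultures, against 1391, 1390 and 655.6 in undifferentiated ones. Against these limits it was at least 21.6-fold and 2.19-fold lower there. Egr3, a partner of Egr1 in the same family, read 53.1, 58.42 and 59.17 in differentiated EAE SVZ cultures, against 1035, 1010 and 879.4 in undifferentiated ones. Egr3 differed in EAE cultures by -0.10, -0.36 and -0.58 in the cervical, thoracic and caudal region, and by -3.76 in SVZ. In naive cultures the same 4 values of Egr3 were -0.32, -0.43, -0.80 and -3.19. Nr4a3 was above 50 on 2 of 12 differentiated naive arrays. It differed in naive cultures by -0.91 in the thoracic region and -4.16 in SVZ, and in the cervical and caudal regions, where no differentiated array was above 50, it was at least 2.04-fold and 1.48-fold lower, with no fold under the stricter limit. Over the 4 regions Nr4a3 differed by -1.88 ± 0.15 in naive cultures, and Egr3 by -1.20 ± 0.06 in EAE and -1.19 ± 0.12 in naive cultures (highest adjusted p of the 3 values 9.91e-07). In EAE cultures all 12 differentiated arrays of Nr4a3 were under 50, so over the regions it was at least 2.25-fold lower, and the stricter limit allows no fold. That average rests mainly on SVZ: by region the bound was 21.6-fold in SVZ, 1.15-fold in cervical and 1.09-fold in thoracic cultures. None was left in caudal ones, where 1 of 3 undifferentiated arrays was above 50.

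Nr4a2, also called Nurr1 and needed for midbrain dopamine neurons, had 46.96 to 99.62 on differentiated EAE arrays, against 116.4 to 655.9 on undifferentiated ones. The groups did not overlap, and Nr4a2 fell, at -1.58 ± 0.08 (adjusted p 9.45e-14). In naive cultures it fell too, at -1.77 ± 0.39 (adjusted p 0.00201). Of its naive undifferentiated arrays 2 stood far above the rest, at 3102 and 1485, and are described with the regions. Egr4, the remaining Egr factor, had 59.18 to 111.7 on the 24 differentiated arrays, against 47.72 to 145.3 on the 24 undifferentiated ones. The ranges overlapped. Its difference was -0.00 ± 0.08 in EAE (adjusted p 0.982) and -0.17 ± 0.09 in naive cultures (adjusted p 0.154).

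**Figure D2:**
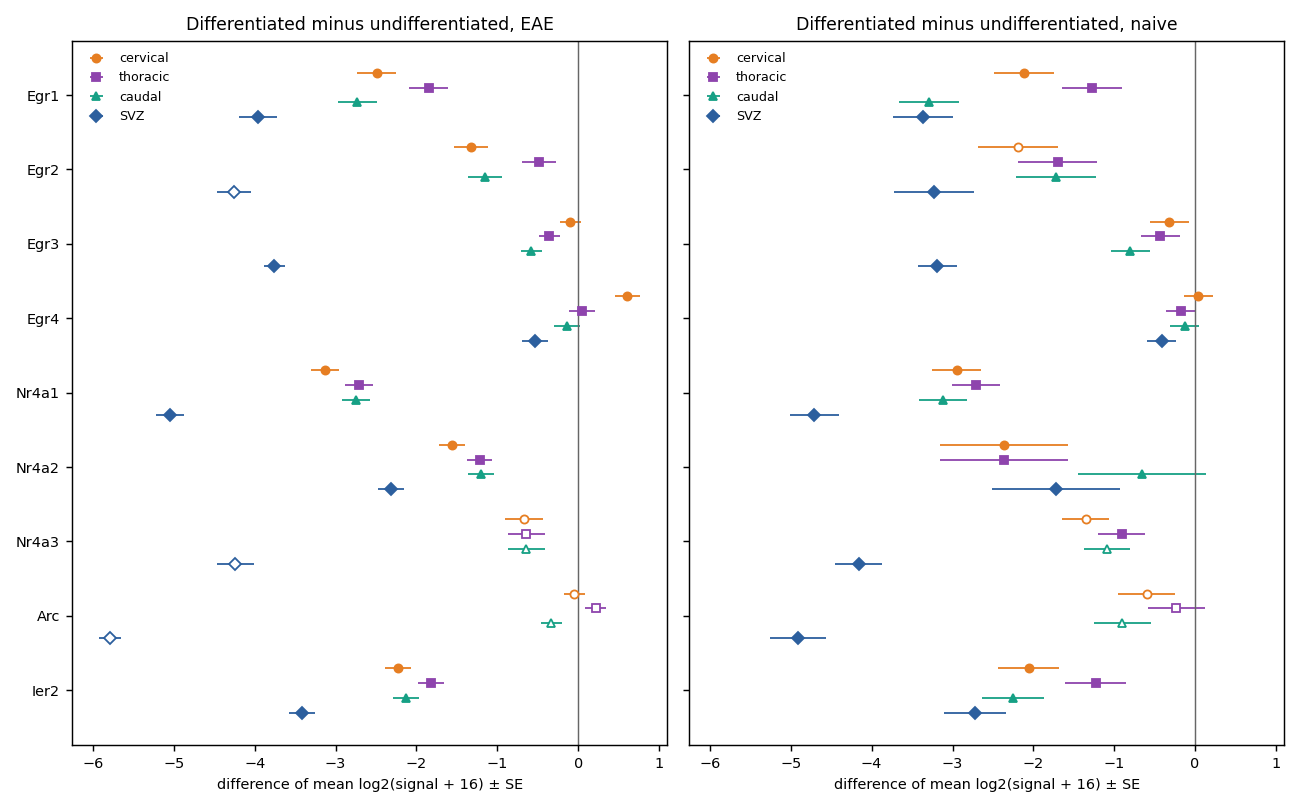
Difference of mean log2(signal + 16) between differentiated and undifferentiated cultures for each gene and region (horizontal axis, log2 units, bars ± SE of the fit), EAE at the left and naive at the right. Open symbols mark differences in which at least 1 of both groups had no array above 50, so their place depends on background. The SVZ diamonds of Arc (-4.91 in naive cultures), Egr3 and Nr4a3 lie far left of the cord symbols, while those of Nr4a1 lie left of cord symbols that are themselves below -2.5.

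Whether differentiation differed by region was tested as the mean difference in the 3 cord regions minus that in SVZ. All 9 genes were called in EAE cultures, where 41.1% of all tested probe sets were called and 12.8% were called in the same, positive direction. Among these, Arc passed the signal filter only through the 3 undifferentiated SVZ arrays of EAE rats, and every other member was called as well. Under quantile normalization 33% and under 75th-percentile scaling 31.9% of all were positive, so the share to read the members against depends on the scaling. In naive cultures 4 genes were called, where 8.48% were called and 2.48% were positive, or 7.67% and 5.8% under those scalings. A positive value means that the differentiated minus undifferentiated difference was higher in cord than in SVZ. Egr3 differed by 3.42 ± 0.15 in EAE and 2.68 ± 0.28 in naive cultures, and Nr4a1 by 2.19 ± 0.20 and 1.78 ± 0.34. For Arc and Nr4a3 in EAE and in naive cultures, and for Egr2 in EAE cultures, the contrast holds groups with no array above 50, so the size of these differences depends on background. Called in EAE cultures only, besides Egr2, were Egr1 at 1.61, Ier2 at 1.36, Nr4a2 at 0.99 and Egr4 at 0.71. The regional differences of Egr4 in EAE cultures were 0.61 (cervical), 0.05 (thoracic), -0.14 (caudal) and -0.53 (SVZ). In naive cultures these 5 genes, Egr2 included, had values of -0.08 to 1.36 with adjusted p of 0.107 to 0.97, and whether the regional difference itself differed between EAE and naive cultures was not tested. The naive Nr4a1 call was lost without replicate 1 (adjusted p 0.0652) or replicate 2 (adjusted p 0.115). These tests and those of differentiation share their arrays.

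Other immediate early genes were mostly lower too. Of 33 further immediate early genes on the array, 25 fell and 4 rose with differentiation in EAE cultures, and 25 fell and none rose in naive cultures. Their medians were -1.39 and -1.40. Fosb, a partner of Jun in AP-1, was under 50 on all differentiated arrays and at least 25.2-fold lower in EAE and 25.1-fold lower in naive cultures, or 2.54-fold and 2.33-fold against the stricter limit. Fos had a log2 difference of -3.62 ± 0.09 in EAE and -3.31 ± 0.19 in naive cultures. Among 22 tested kinases and transcription factors upstream, 9 fell and 3 rose in EAE cultures, and 7 fell and 2 rose in naive cultures, where 34.1% and 26.8% of all tested probe sets fell. Srf, which encodes the factor that binds the CArG box, differed by -1.25 ± 0.11 and -1.43 ± 0.15. The neural progenitor markers fell alongside, 9 of 11 tested in EAE and 8 of 11 in naive cultures, with Mki67, a mark of dividing cells, at -2.53 ± 0.15 and -1.67 ± 0.42. Their part in the members' values was not tested. Of the 5 corepressors and partners of the members, 2 fell in EAE cultures and none was called in naive ones. They were Nab2, an Egr corepressor that Egr factors also induce, at -0.53 ± 0.16, and Rxrb, a retinoid X receptor of the kind that pairs with Nr4a1 and Nr4a2, at -0.34 ± 0.05.

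The third question was how cord and SVZ cultures differed. In undifferentiated cultures all 9 genes were lower in cord of EAE rats, where 47.7% of all tested probe sets were called and 29.2% were lower. In naive cultures 6 of 9 were lower, where 22.9% were called and 10.6% were lower. Under scaling to the 75th percentile 21.2% of all tested probe sets were lower in EAE cord cultures, and the call of Egr4 was lost. The median of the 9 genes was -2.0 in EAE and -1.18 in naive cultures, against -0.06 and 0.03 for all tested probe sets. Arc passed the filter in EAE cultures only through its SVZ arrays, and with Arc at its bound the EAE median was the same. The labels do not say if cord regions of the same replicate number share animals. With same-numbered arrays of all 4 regions as a random block, all 50 calls of members in comparisons that span regions were kept. That block joins SVZ with cord arrays. For cord against SVZ it therefore cannot show what links among cord arrays alone would do.

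Arc read 20.86 to 40.11 on the 9 undifferentiated EAE cord arrays, all under 50, against 2185 to 2383 on the 3 SVZ arrays. It was at least 46.1-fold lower in cord (4.6-fold against the stricter limit). In naive cultures it read 23.35 to 111.9 in cord, with 4 of 9 arrays above 50, against 1381 to 2043 in SVZ, and the difference was -4.71 ± 0.35 (adjusted p 1.13e-05). Cord and SVZ were wide apart in both.

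Nr4a3 read 39.38 to 91.24 on the 9 EAE cord arrays, 5 of them above 50, against 655.6 to 1391 in SVZ, and 59.75 to 197.9 on the 9 naive cord arrays, against 939.4 to 1352 in SVZ. Its difference was -3.99 ± 0.22 in EAE (adjusted p 1.24e-09) and -3.52 ± 0.28 in naive cultures (adjusted p 1.97e-05). Egr3 read 65.52 to 129.7 on EAE cord arrays, against 879.4 to 1035 in SVZ, and 81.84 to 182.7 on naive cord arrays, against 548.1 to 995 in SVZ. Its difference was -3.15 ± 0.11 (adjusted p 9.25e-12) and -2.71 ± 0.24 (adjusted p 3.65e-05). For both genes every cord array lay below every SVZ array.

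Egr1 and Nr4a1 were still well measured in cord. Egr1 had 767 to 1495 on EAE cord arrays, against 3424, 3915 and 4427 in SVZ, and 911 to 2396 on naive cord arrays, against 2172, 2704 and 3360 in SVZ. In EAE cultures the regions did not overlap, and in naive cultures 2 caudal arrays, at 2396 and 2337, reached into the SVZ range. The difference of Egr1 was -1.82 ± 0.14 in EAE (adjusted p 3.79e-08) and -0.98 ± 0.18 in naive cultures (adjusted p 0.0039). Nr4a1 differed by -2.0 ± 0.14 and -1.18 ± 0.29, and Ier2 by -1.88 ± 0.12 and -1.11 ± 0.26. These 3 naive calls rest on few arrays: without replicate 1 or without replicate 2 the count of called members was 3, and the adjusted p of these 3 genes lay between 0.0509 and 0.141. Without the 2 arrays that no other array of their group resembled, 7 members were called, with Egr2 added at -1.5 ± 0.28 (adjusted p 0.00168). The share of all tested probe sets called in that fit is not given, so the count cannot be read against it.

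**Figure D3:**
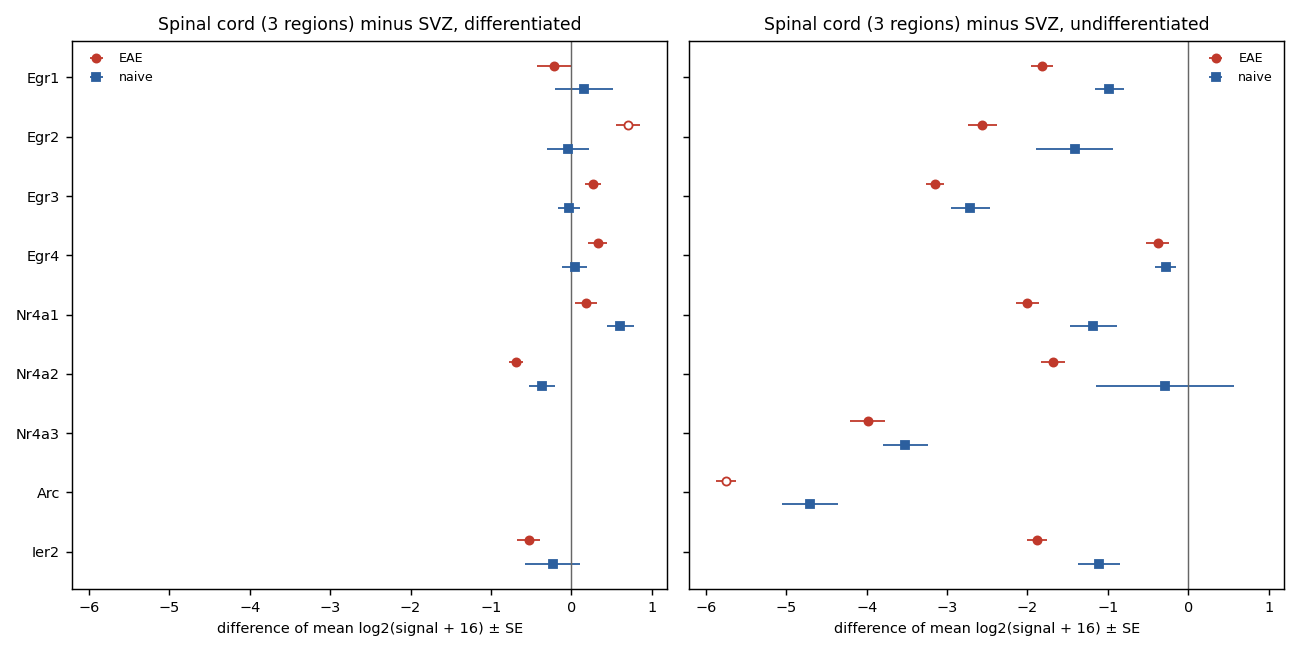
Difference of mean log2(signal + 16) between cord cultures (mean of 3 regions) and SVZ cultures (horizontal axis, log2 units, bars ± SE of the fit), differentiated at the left and undifferentiated at the right, EAE as red circles and naive as blue squares. Open symbols (Arc in undifferentiated and Egr2 in differentiated EAE cultures) have a group with no array above 50. In undifferentiated naive cultures Arc lies at -4.71, and in differentiated cultures the genes shown lie between -0.69 and 0.71, with Arc and Nr4a3 not tested.

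Egr2 (-1.41 ± 0.48, adjusted p 0.0588) and Egr4 (-0.28 ± 0.13, adjusted p 0.164) were not called between cord and SVZ in naive undifferentiated cultures. Nr4a2 was not called either, and its arrays varied most. Its undifferentiated arrays read 159.3, 151 and 3102 in cervical, 435.4, 178.2 and 1485 in thoracic and 159.7, 130.3 and 96.79 in caudal cultures, against 249.5, 370.1 and 562.5 in SVZ. The 2 highest of all 54 arrays for this gene were thus cervical and thoracic replicate 3. The fibroblast and pericyte score of these groups was 7.90, 5.98 and 10.59 in cervical and 10.68, 5.75 and 10.74 in thoracic cultures, so both high arrays also carried a high score, as did thoracic replicate 1. The part of those markers in Nr4a2 was not tested. Egr2 was high on the same arrays, at 612.4 and 392.4. Cervical replicate 3 was also the highest undifferentiated cord array for Nr4a1 (2650), Nr4a3 (197.9), Arc (111.9) and Ier2 (778.4). It was not the highest for Egr1, Egr3 or Egr4. The cord and SVZ difference of Nr4a2 was -0.29 ± 0.86 in naive cultures (adjusted p 0.84) and -1.68 ± 0.15 in EAE cultures (adjusted p 3.5e-07). Without the 2 naive arrays that stood apart it was -0.52 ± 0.34 (adjusted p 0.244), and thoracic replicate 3 stayed in that fit.

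In differentiated cultures the regions were close. For 7 of the 9 genes a test was possible, since Arc and Nr4a3 were above 50 on too few arrays. In EAE cultures Egr3 and Egr4 were higher in cord by 0.27 ± 0.10 and 0.33 ± 0.12, and Nr4a2 and Ier2 were lower at -0.69 ± 0.09 and -0.53 ± 0.14. Egr2 was called as higher in cord too, but its 3 SVZ arrays were under 50 and 5 of its 9 cord arrays above, so it was at least 1.02-fold higher, and the stricter limit allows no fold. There 61.3% of all tested probe sets were called, 17.4% as higher and 43.9% as lower, and with quantile normalization 39.7% as higher and 26.8% as lower. The centring bears on this: the median of all tested probe sets was -0.21, and 0.23 with 75th-percentile scaling, under which 4 members were higher and 1 lower, and Ier2 at -0.09 was no longer called (adjusted p 0.567). Without replicate 1 or without replicate 3 the count was 3. In naive cultures only Nr4a1 was called, at 0.61 ± 0.17 (adjusted p 0.0269), where 22.5% of all tested were called and 6.43% were higher (16.3% with quantile normalization and 12.9% with 75th-percentile scaling), and that call was lost without any 1 of the 3 replicates (adjusted p 0.105 to 0.199).

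Of the 33 further immediate early genes, 21 were lower and 2 higher in undifferentiated cord cultures of EAE rats, and 10 lower and 2 higher in naive ones, with medians of -0.93 and -1.0. Ccn1, a matricellular protein gene, differed by -3.92 ± 0.22 in EAE and -2.38 ± 0.68 in naive cultures, and Btg2, an antiproliferative gene, by -3.25 ± 0.18 and -2.38 ± 0.40. Npas4, a neuronal transcription factor that calcium entry induces, was under 50 on all EAE cord arrays and at least 6.34-fold lower there, with no fold under the stricter limit, and differed by -4.14 ± 0.21 in naive cultures. Nab2 differed by -3.40 ± 0.26 and -2.79 ± 0.50, and Srf by -2.16 ± 0.22 and -2.22 ± 0.29. Of the progenitor markers Egfr, the receptor for the EGF commonly used to grow progenitors, was at least 36.6-fold lower in EAE (3.64-fold against the stricter limit) and differed by -4.45 ± 0.87 in naive cultures. Egfr was named for the size of its change and does not stand for the other progenitor markers, which are not described here. Of all tested probe sets 18.5% were higher in EAE cord cultures, or 30.1% with 75th-percentile scaling. All 15 microglia and macrophage markers were higher there, as were 10 of 13 tested fibroblast and pericyte markers and 10 of 10 oligodendrocyte markers. Their part in the members' values was not tested.

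The fourth question was how SVZ tissue compared with SVZ cultures. Against undifferentiated cultures, 8 of the 9 genes were lower in biopsies in EAE and in naive rats, and Egr4 was not called. This stood against 79.7% and 76.9% of all tested probe sets called, with 44.4% and 43.7% lower (35.9% and 35.6% with 75th-percentile scaling), so that most genes of the array differed in this comparison. The median of the 9 genes was -3.12 in EAE and -2.57 in naive samples, against -0.12 and -0.10 for all tested probe sets.

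Ier2 read 72.3, 63.04 and 94.43 in EAE biopsies, against 2088, 2116 and 1860 in EAE cultures. In naive samples it read 67.86, 76.85 and 77.47 in biopsies, against 1061, 1108 and 1651 in cultures. It was lower at -4.47 ± 0.13 in EAE (adjusted p 6.2e-12) and at -3.81 ± 0.15 in naive biopsies (adjusted p 9.3e-11), the largest value among the 9 genes in EAE samples. Nr4a1 read 176.2, 304.4 and 422.8 in EAE biopsies, against 4449, 4272 and 4288 in cultures, and differed by -3.86 ± 0.22. In naive samples Nr4a1 differed by -3.89 ± 0.13.

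Among the 8 genes called as lower, Egr3 and Arc had the smallest falls in tissue. Egr1 was near Arc, at -2.79 ± 0.14 in EAE and -2.41 ± 0.14 in naive biopsies, and genes were not tested against each other. Arc read 269.9, 440.4 and 530 in EAE biopsies and 331, 452.3 and 340.1 in naive ones, below every undifferentiated SVZ culture. It was lower at -2.49 ± 0.19 in EAE and at -2.19 ± 0.16 in naive biopsies. Egr3 read 317.9, 470.7 and 432.8 in EAE and 428.4, 498.8 and 427.8 in naive biopsies, a difference of -1.24 ± 0.14 and -0.81 ± 0.18. With quantile normalization the naive value of Egr3 was -0.42 and was not called (adjusted p 0.0928).

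Against differentiated SVZ cultures, 6 genes were higher and 2 lower in biopsies, in EAE samples (8 tested) and in naive samples (9 tested). Here 74.6% and 63.2% of all tested probe sets were called, 31.1% and 27.6% as higher and 43.6% and 35.6% as lower. With 75th-percentile scaling 40.8% and 32.5% were higher. In EAE samples Arc and Nr4a3 passed the filter only through the biopsies, since all 3 differentiated arrays of each were under 50, and the other 6 tested genes were called as well. Arc was at least 7.96-fold and Nr4a3 at least 1.98-fold higher in EAE biopsies against a limit of 50, and the stricter limit allows no fold for either. In naive samples Arc was higher by 2.72 ± 0.19 (adjusted p 2.48e-05), with 1 of 3 differentiated arrays above 50, and Nr4a3 by 0.52 ± 0.14 (adjusted p 0.0127), also with 1 of 3. For both genes that array was replicate 3, which no other array of its group resembled, so both sizes depend on background. Egr3 was higher by 2.52 ± 0.14 and 2.39 ± 0.11. Egr1, Nr4a1 and Egr4 were higher by 0.63 to 1.19. Ier2 was lower at -1.06 ± 0.15 in EAE and at -1.09 ± 0.17 in naive samples, and Nr4a2 by -0.80 ± 0.10 and -0.85 ± 0.16. The biopsies of Nr4a2 read 44.15 to 57.74, and 2 of the 6 were above 50. The order of tissue and differentiated culture was thus opposite for Arc and Egr3 on one side and Ier2 and Nr4a2 on the other.

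**Figure D4:**
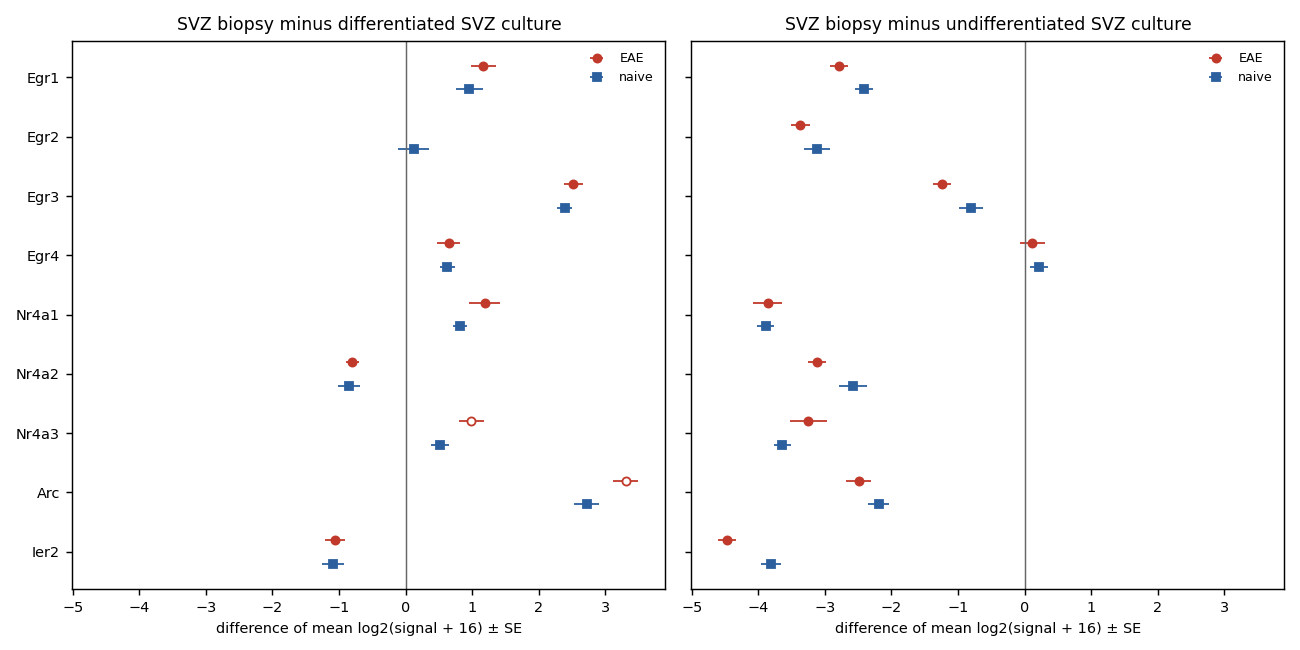
Difference of mean log2(signal + 16) between SVZ biopsies and SVZ cultures (horizontal axis, log2 units, bars ± SE of the fit), against differentiated cultures at the left and undifferentiated cultures at the right, EAE as red circles and naive as blue squares. Open symbols (Arc and Nr4a3 in EAE samples, against differentiated cultures) have a group with no array above 50. Egr3 lies at 2.52 and 2.39 against differentiated cultures, and Ier2 lies at -4.47 and -3.81 against undifferentiated ones.

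Neuronal genes were higher in tissue. Of 14 neuron markers, 13 were higher than in undifferentiated cultures in EAE and in naive biopsies, and of 12 tested activity-regulated neuronal genes 12 and 11 were, with medians of 3.37 and 3.26. Of all tested probe sets 35.4% and 33.2% were higher, or 43.7% and 42.3% with 75th-percentile scaling. Rgs4, a regulator of G-protein signalling, was at least 41.9-fold higher in EAE biopsies (4.08-fold against the stricter limit) and higher by 4.95 ± 0.13 in naive ones, and Penk, the enkephalin precursor of striatal neurons, by 5.07 ± 0.14 and 4.77 ± 0.15. Of the 33 further immediate early genes 32 and 33 were tested, of which 26 and 27 were lower and 3 and 3 higher. Atf3, a stress-induced factor, was under 50 in all biopsies and at least 54.4-fold and 63.2-fold lower (7.43-fold and 8.92-fold against the stricter limit), and Fos differed by -6.15 ± 0.18 and -6.06 ± 0.11. The part of neurons in the biopsy levels of Arc and Egr3 was not tested.

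The last question, the comparison named in the study's design, was whether EAE changed these genes. In 8 of the 9 pairwise comparisons of 3 EAE with 3 naive arrays no member was called. The exception was undifferentiated caudal cord, with 3 of 8 tested members lower, where 17.2% of all tested probe sets were called and 13.9% were lower (9.76% with quantile normalization and 9.81% with 75th-percentile scaling). In the others the share of all tested probe sets called was 0 (undifferentiated SVZ, cervical and thoracic, differentiated SVZ and thoracic), 0.133% (differentiated cervical), 0.89% (differentiated caudal) and 0.0151% (biopsies). The t-test of the study's methods, with Benjamini-Hochberg adjustment, called no member in any of the 9 comparisons.

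In undifferentiated caudal cultures Egr1 read 1107, 1134 and 767 in EAE, against 2396, 2337 and 1487 in naive cultures, with no overlap. It was lower at -1.03 ± 0.22 (adjusted p 0.00929). Every EAE array lay below every naive array here for 29.5% of all tested probe sets. Egr2 read 117.3, 110.6 and 73.73, against 207.6, 227.2 and 138.9, and was lower at -0.83 ± 0.21 (adjusted p 0.021). Nr4a3 read 46.79, 51.69 and 43.97, against 91.9, 59.75 and 74.32, and was lower at -0.51 ± 0.16 (adjusted p 0.0494), close to the limit of the rule. Nr4a1 overlapped, at 848.3, 1370 and 988.7 in EAE against 1939, 1709 and 831.4 in naive cultures.

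The calls depended on single arrays and on scaling. Only Egr1 stayed called without EAE replicate 3 or without naive replicate 1, and under either other scaling. In the methods' t-test its adjusted p was 0.126. Of all tested probe sets 3.32% were higher in EAE caudal cultures in the main fit, or 9.83% with quantile normalization. Of the same arrays' other markers, 15 of 15 microglia and macrophage genes were higher and 11 of 14 fibroblast and pericyte genes lower in EAE. The mean score was 8.11 to 8.54 in EAE, against 4.80 to 5.36 in naive cultures for the first list, and 5.67 to 7.37, against 7.93 to 8.65 for the second. Their part in the fall of Egr1 was not tested. Of 32 further immediate early genes tested 9 were lower and none higher, among them Ccn2, at least 3.54-fold lower against the limit of 50 and with no fold under the stricter one, and Gadd45b at -1.58 ± 0.25.

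In undifferentiated SVZ cultures no member was called, and the adjusted p of all 9 was 0.368 or more. Ier2 read 2088, 2116 and 1860 in EAE, against 1061, 1108 and 1651 in naive cultures, with a difference of 0.69 ± 0.15 (adjusted p 0.368). Egr1 read 3424, 3915 and 4427, against 2172, 2704 and 3360, with 0.53 ± 0.16 (adjusted p 0.405). For 4 of the 9 genes (Egr1, Nr4a1, Arc, Ier2) all EAE arrays lay above all naive arrays, and for the other 5 the groups overlapped. Of all tested probe sets 19.4% were separated in this way. An unadjusted p under 0.05 was found for 5 members and for 12% of all tested probe sets. The differences of Egr4 (-0.04) and Nr4a3 (-0.10) were below 0. Without naive replicate 3, Ier2 was called at 0.89 ± 0.10 (adjusted p 0.0368), and the share of all tested probe sets called in that fit is not given. The median of the 9 genes was 0.40, against 0.08 for all tested probe sets.

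In the undifferentiated cervical and thoracic cultures, 1 member each had an unadjusted p under 0.05, as had 10.8% and 6.31% of all tested probe sets. They were Egr4 at -0.62 ± 0.17 (adjusted p 0.396) and Nr4a1 at -0.68 ± 0.16 (adjusted p 0.708). In thoracic cultures, leaving out naive replicate 2, which also stood apart from its group, gave 2 calls, Egr2 at -1.16 ± 0.28 (adjusted p 0.0316) and Nr4a2 at -2.30 ± 0.45 (adjusted p 0.0118). The share of all tested probe sets called in that fit is not given, so these calls cannot be read against it. The 2 naive arrays left in that fit had fibroblast and pericyte scores of 10.68 and 10.74, against 7.68, 7.68 and 8.55 in EAE cultures. Averaged over the 4 regions no member was called, where 6.23% of all tested probe sets were, and 2 had an unadjusted p under 0.05, as had 29.4% of all: Nr4a3 at -0.45 ± 0.17 (adjusted p 0.0882) and Arc at -0.38 ± 0.16 (adjusted p 0.129), whose EAE cord arrays were all under 50. Whether the EAE effect differed between cord and SVZ was also tested, with no member called by limma, 5 at an unadjusted p under 0.05 (9.02% of all tested probe sets), and 0.233% of all tested probe sets called. The differences ran from -1.39 (Nr4a2) to -0.11 (Egr4), with a median of -0.83 against -0.10 for all tested probe sets. The one with the smallest p was Egr1 at -0.84 ± 0.23 (adjusted p 0.279).

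In differentiated cultures 6 or 7 members could be tested and none was called. Nr4a2 was closest in the average over regions, at -0.30 ± 0.08 (adjusted p 0.0778), where 0.779% of all tested probe sets were called. It read 57.65, 56.48 and 46.96 in EAE against 71.59, 70.89 and 72.33 in naive cervical cultures, and 56.19, 53.31 and 55.21 in EAE against 67.37, 85.2 and 71.43 in naive caudal cultures, with no overlap in either. Every EAE array lay below every naive array for 6.75% (cervical) and 9.78% (caudal) of all tested probe sets. In thoracic cultures Nr4a2 overlapped, at 63.63, 49.38 and 54.79 in EAE against 97.61, 61.41 and 95.71 in naive ones. It overlapped in SVZ cultures too, with a difference of -0.06 ± 0.15. The cervical and caudal levels are close to the limit of 50. In the average over regions 2 members, Nr4a1 and Nr4a2, had an unadjusted p under 0.05, as had 14.7% of all tested probe sets. So had 1 member each in the SVZ, cervical and thoracic comparisons and none in the caudal one, where the shares of all tested probe sets were 18.5%, 3.97%, 6.11% and 9.35%. In biopsies no member and 3.75% of all tested probe sets had one, all 9 genes overlapped where 7.65% of all tested probe sets did not, and the differences of the 8 tested ran from -0.16 (Egr3) to 0.40 (Nr4a1).

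**Figure D5:**
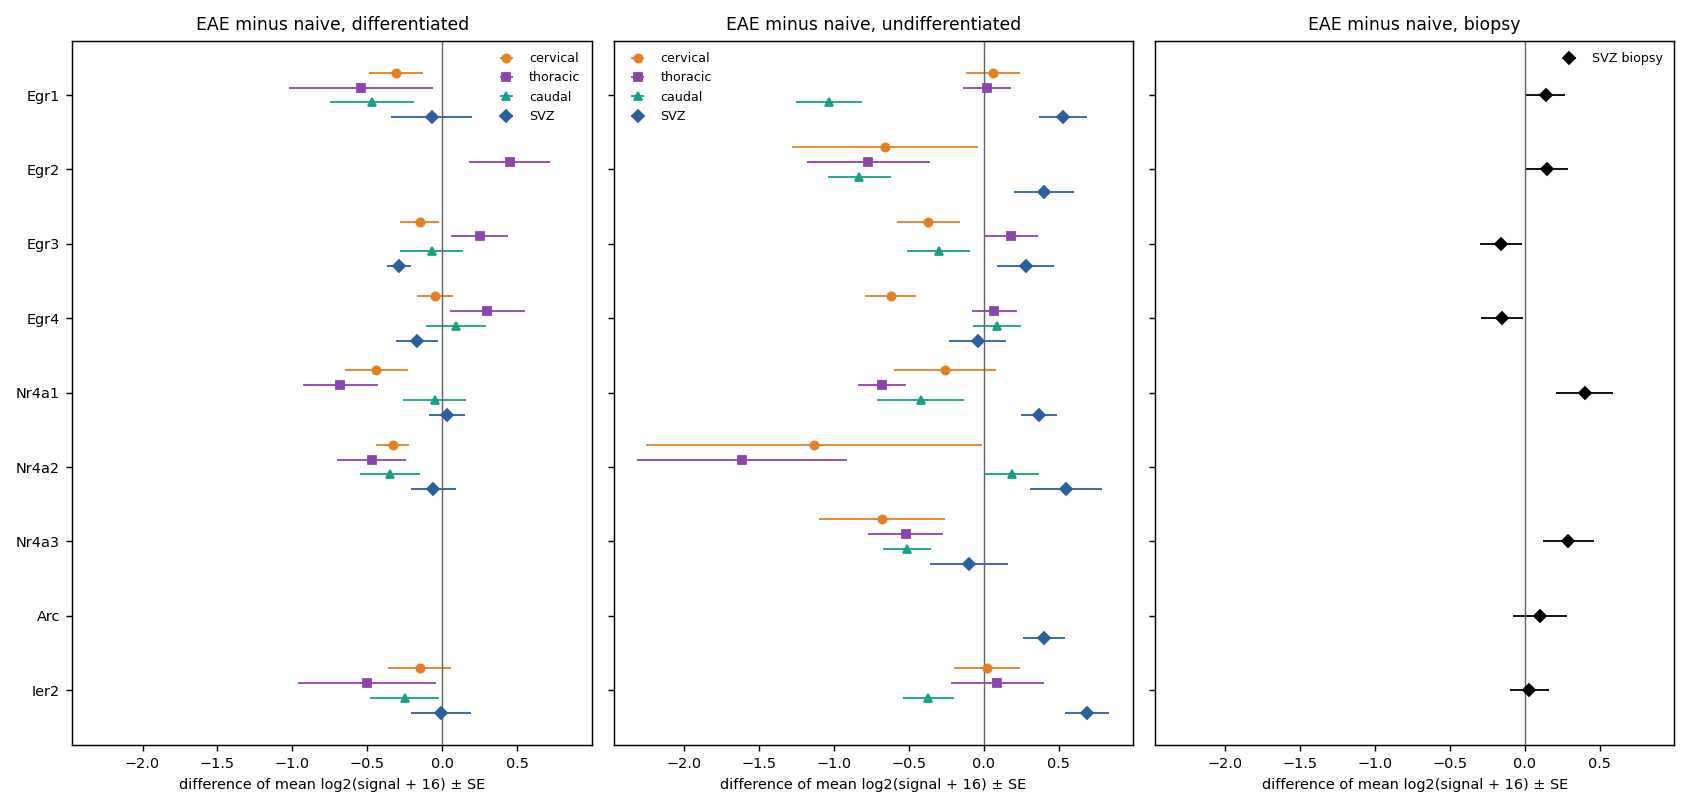
Difference of mean log2(signal + 16) between EAE and naive samples (horizontal axis, log2 units, bars ± SE of the fit) in differentiated cultures, undifferentiated cultures and biopsies, by region. Genes above 50 on fewer than 3 arrays of a comparison have no symbol. In undifferentiated cultures the caudal triangle of Egr1 lies at -1.03 and its SVZ diamond at 0.53, and the long bars of Nr4a2 mark naive cervical and thoracic arrays that stand far apart.

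Finally, the 16385 probe sets with a single symbol and enough signal were ranked by the Pearson correlation of their 18 group means with each member, the members themselves left out. The genes most like Arc were Dgkg (0.987), P2ry14 (0.980) and Nrgn (0.976), and those most like Egr3 were Mchr1 (0.980), Dgkg (0.975) and Nrgn (0.970). For Nr4a3 they were Abl2 (0.974), Srf (0.973) and Srgap2 (0.966). For Nr4a1 they were Fosb (0.988), Spry1 (0.969) and Etv4 (0.963), for Egr1 Klf2 (0.967), Fosb (0.964) and Ttc9 (0.950), and for Ier2 Limd1 (0.983), Etv4 (0.976) and Spry1 (0.973). Egr2 was closest to Dusp5 (0.982), Spry4 (0.953) and Emilin1 (0.952). Nr4a2 had lower values, with Tor1aip1 (0.934), Gfra1 (0.934) and Fam20b (0.932), and Egr4 had Crtam (0.912) and Sdr9c7 (0.879). These values rest on 18 points that share the normalization, and no link between the genes was tested.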

How the data were processed

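RNA of 54 samples was hybridised to Affymetrix gene-level arrays, 1 channel each. Per the file headers, the deposited intensity values are PLIER gene summaries with GC-matched background (PM-GCBG) and global median normalization, and the submitters' processing notes name Affymetrix Expression Console. No source used here gives the array design, the annotation build or scan dates. The authors' deposited table also holds p-values, ratio columns and a score (a signed fold change) that they computed from these signals in their own comparisons, and no printed value comes from these.

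The intensities of 27342 main probe sets were taken as log2(signal + 16), so folds of dim genes are understated. Probe sets above 50 on at least 3 arrays of a fit were tested with limma 3.58.1 (R 4.3.3), and p-values were adjusted over all of these by Benjamini-Hochberg. The limits for a call came from the study's design text: an adjusted p up to 0.05 and a fold from 1.2 upwards. A pairwise comparison used its own 6 arrays, and averages over regions used the arrays of 1 disease state or 1 stage. The scripts were tested on simulated data. Replicate numbers were checked for pairing: in 0 of 9 EAE and naive group pairs, 5 of 24 region pairs and 1 of 12 stage pairs did all same-numbered deviations correlate above 0.1, so the main fits have no block. Between undifferentiated cervical and thoracic cultures these correlations were 0.64, 0.57 and 0.40 in EAE and -0.30, 0.92 and 0.87 in naive cultures. The main fits count cord arrays as independent, so p-values of comparisons that span cord regions may be too small. The members and gene lists were chosen with earlier results of these data known. From each list at most 4 genes a comparison were named, the called ones with the largest change, and for each member the 3 genes with the highest correlation, of which 1 is not reported here. The bound "at least N-fold" was first computed against the 95th percentile of background probe sets, which was 339 to 626. It was replaced by the limit of 50 after those values were seen, and both are printed. The tests were repeated with other settings: leaving out each replicate, the methods' t-test, blocking on replicate number, a joint fit of all groups, quantile or 75th-percentile scaling, no filter and pseudocount 1. After the data had been seen, a random block and fits without arrays unlike their group were added.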

Additional observations from a re-analysis of the deposited data

Results flagged for a closer look

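The difference between differentiated and undifferentiated cultures was not the same in cord and SVZ cultures by limma's interaction test. In EAE cultures the cord minus SVZ difference was 5.74 for Arc, 3.59 for Nr4a3, 3.42 for Egr3, 3.27 for Egr2, 2.19 for Nr4a1, 1.61 for Egr1, 1.36 for Ier2, 0.99 for Nr4a2 and 0.71 for Egr4 (log2, highest adjusted p 0.00379, for Egr4). In naive cultures it was 4.33 for Arc, 3.04 for Nr4a3, 2.68 for Egr3 and 1.78 for Nr4a1 (highest adjusted p 0.00257, for Nr4a1). Arc and Nr4a3 in both, and Egr2 in EAE cultures, had groups with no array above 50, so their fitted values depend on background and are no sizes. In EAE cultures Arc passed the signal filter only through the undifferentiated SVZ arrays. All of these EAE and naive tests share their arrays with the report's differentiation and region comparisons.

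For 4 genes every EAE array lay above every naive array in one region and below every naive array in another. In undifferentiated cultures these were 3 genes, where 9.79% of all probe sets with enough signal did the same, and in differentiated cultures 1, where 8.26% did. The 2 differences were 0.53 in undifferentiated SVZ and -1.03 in undifferentiated caudal cultures for Egr1. They were 0.37 in undifferentiated SVZ and -0.68 in undifferentiated thoracic cultures for Nr4a1. They were 0.40 in undifferentiated SVZ and -0.74 in undifferentiated caudal cultures for Arc, whose caudal signals were under 50 on all EAE arrays. They were 0.25 in differentiated thoracic and -0.29 in differentiated SVZ cultures for Egr3. The difference between these pairs of regions was not tested.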

How the results depend on the processing

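The 24 comparisons held 85 calls of members, which had 945 values under 28 other settings: 892 kept direction and call, 53 kept direction and lost the call, and 0 reversed. In undifferentiated caudal cultures the 3 calls of EAE against naive became 1 with 75th-percentile scaling, quantile normalization or all groups in 1 fit, 0 with the methods' t-test, and 1 to 3 on leaving out 1 replicate. All groups in 1 fit gave 1 call in undifferentiated cervical cultures and 1 in the undifferentiated mean of regions, where there had been 0, and 1 in place of 5 for EAE cord against SVZ in differentiated cultures. Quantile normalization gave 1 call in the differentiated mean of regions. Leaving out 1 replicate gave 0 to 1 calls in undifferentiated SVZ, 0 to 2 in undifferentiated thoracic, 3 to 7 for naive undifferentiated cord against SVZ, 0 for the naive differentiated and 3 to 4 for the EAE differentiated one. Without the undifferentiated thoracic array unlike its group, 2 members were called. The cause of these shifts was not tested, apart from the fewer arrays left. Shares of all tested probe sets called are not given for the fits with fewer arrays.

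With the replicate number as a block the caudal count was 2, since Nr4a3 was no longer called (adjusted p 0.0955), and no other member's call changed. By the check given with the methods the numbers paired no EAE group with its naive group. In 5 of 24 pairs of regions all same-numbered deviations correlated above 0.1, and with a random block shared by regions, SVZ included, all 50 calls were kept. Leaving out unlike arrays gave no value where a group lost all its arrays. Arc lay under 50 on most undifferentiated cord arrays, and Arc and Nr4a3 on most differentiated arrays, where folds are bounded by background. Nr4a3 was above 50 on 14 of 18 undifferentiated cord arrays.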
